A study of Homo sapiens with 4 samples.

Results

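The 10 genes described here encode proteins that mark chromatin beside a DNA double-strand break and protect the broken ends: TP53BP1, RIF1, MAD2L2, SHLD1, SHLD2, PAXIP1, RNF8, RNF168, MDC1 and H2AX. They were chosen by name from 16717 genes, for their known place in this pathway and in the response to PARP inhibitors, and all 10 were found and were high enough in level to be tested. RNA was measured by RNA-Seq in Cal-62, an established cell line of anaplastic thyroid cancer origin. There were 2 libraries of the solvent control, DMSO, and 2 of cells given niraparib, an inhibitor of PARP1 and PARP2. The concentration and the time of the RNA-Seq treatment are not given in the sources used here, and all 4 libraries are of 1 cell line, which carried no label of a genetic change made by the study. Whether the replicates are separate cultures is not stated, so the p-values measure only the spread between these libraries.

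When a chromosome breaks, the histone H2AX is phosphorylated beside the break and is bound by the scaffold MDC1. MDC1 calls in the ubiquitin ligase RNF8, and RNF168 then extends the ubiquitin mark on histones that 53BP1, the product of TP53BP1, reads. 53BP1 carries RIF1 and PAXIP1 (also called PTIP), and RIF1 brings shieldin, a complex of SHLD1, SHLD2, SHLD3 and MAD2L2 that limits the trimming (resection) of the ends. In cells without BRCA1, loss of 53BP1, RIF1 or shieldin restores resection and is a known route to resistance against PARP inhibitors.

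The values are TPM, transcript abundances scaled to gene length and to a fixed total per library, so that levels of different genes can be set side by side within a library. The deposited table is named as counts, and the unit was read from its values, which sum to 994264 to 995353 in each library. Read counts cannot be recovered from TPM, and depth is therefore unknown. Niraparib was compared with DMSO as log2(TPM + 1) with limma over the 13377 genes that reached 1 TPM in 2 or more libraries, with Benjamini-Hochberg adjusted p-values over that whole set and a threshold of 0.05. Fold changes on this scale understate those of genes at low TPM. The label of the cells could be checked on only some thyroid markers: PAX8 was at 189 to 207 TPM in the 4 libraries and FOXE1 at 1.95 to 4.61 TPM, while TG, TSHR, NKX2-1 and SLC5A5 were not analysed here. Epithelial and mesenchymal markers were both present, with KRT8 and KRT18 at 1078 TPM or more and VIM at 2015 TPM or more in every library, while the epithelial cadherin CDH1 was at 0.07 to 0.28 TPM. Across genes, log2 fold changes were higher where the longest annotated transcript was richer in G and C, by 0.235 per 10 percentage points of GC content over 12513 genes, so a GC-adjusted value, from which this trend was removed in each library, is given beside each result whose call it alters.

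After niraparib, RIF1, SHLD2, RNF168 and PAXIP1 fell, MAD2L2 rose, and TP53BP1, SHLD1, RNF8, MDC1 and H2AX did not pass the test. The 4 lower genes were at 0.491 to 0.656 of their DMSO mean and MAD2L2 was at 1.31 times its DMSO mean. In all, 4 of 10 genes were called lower, against 11.7% of all genes tested, and 1 of 10 was called higher, against 20.8%. With median-of-ratios scaling of the TPM the calls among the 10 genes were again 4 and 1, while those of all genes were split as 16.7% lower and 14.9% higher. The median log2 fold change of the 10 genes was 0.01, beside 0.07 for all genes tested. Both niraparib libraries lay below both DMSO libraries in 4 genes, which holds for 29% of all genes tested, and above both in 4 genes, which holds for 41.9%. RIF1, RNF168 and PAXIP1 were among genes the study itself drew as lower in these samples, so their calls are not independent evidence of a direction.

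**Figure D1:**
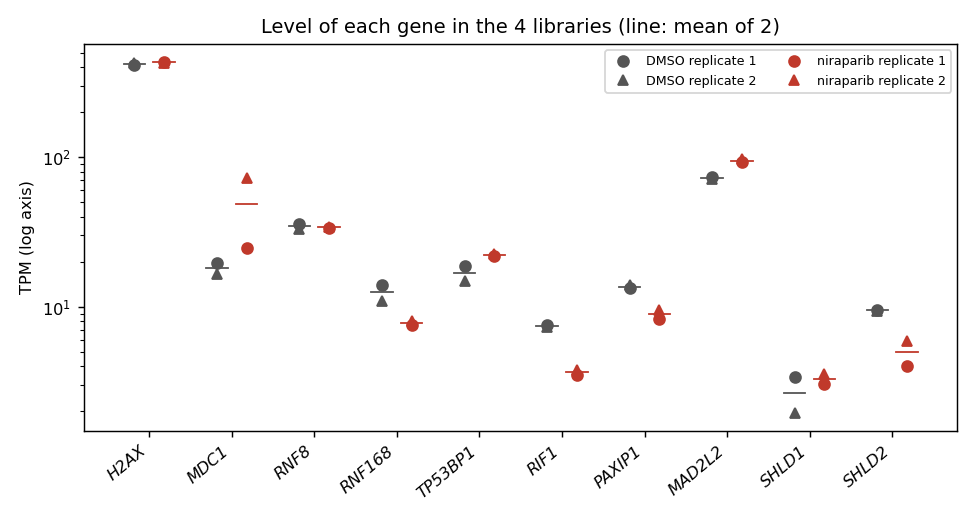
TPM of the 10 genes (log axis) in each of the 4 libraries, with grey for DMSO, red for niraparib and a line at the mean of 2 libraries. RIF1, SHLD2, RNF168 and PAXIP1 are lower in both niraparib libraries, and MDC1 is far apart between the niraparib libraries (24.8 and 72.1 TPM).

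The order of the genes by level was nearly the same in every library. H2AX was highest, above 97.8% of genes tested in DMSO replicate 1, followed by MAD2L2, and SHLD1 was lowest, with RIF1 next to it and SHLD2 above that. RNF8 held the place after MAD2L2 except in niraparib replicate 2, where MDC1 stood above it. Several neighbours did not differ beyond their spread. PAXIP1 and RNF168 exchanged places between the DMSO libraries, and TP53BP1 and MDC1 had overlapping ranges with DMSO. RIF1 and SHLD1 had overlapping ranges with niraparib, where RIF1 was at 3.52 and 3.78 TPM and SHLD1 at 3.03 and 3.55 TPM.

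At the start of the pathway, H2AX encodes the histone variant whose phosphorylated form, γH2AX, marks breaks. Its mRNA was at 415 and 424 TPM with DMSO and at 435 and 428 TPM with niraparib. The groups did not overlap but lay close together, with a log2 fold change of 0.04 (95% interval -0.04 to 0.13, limma adjusted p = 0.383). H2AX has the highest GC content of the 10 genes, 66.8%, and its GC-adjusted log2 fold change was -0.29 (limma adjusted p = 0.00772), so that its direction rests on this adjustment. It was also -0.059 with median-of-ratios scaling and -0.011 with upper-quartile scaling, neither past the threshold. The phosphorylation of the protein was not measured.

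MDC1, the scaffold that binds γH2AX, was at 19.7 and 16.6 TPM with DMSO and at 24.8 and 72.1 TPM with niraparib. Both niraparib libraries were higher, but niraparib replicate 2 stood far above the other 3 libraries. The log2 fold change was 1.19 (95% interval -0.21 to 2.59) and did not pass the test (limma adjusted p = 0.155). Leaving out niraparib replicate 2 gave 0.44 (limma adjusted p = 0.0994) and leaving out replicate 1 gave 1.94 (0.0258), so the size of this difference is set by 1 library. The gap of 1.5 between the niraparib libraries, as a difference of log2(TPM + 1), was matched or passed by 64 of 13377 genes (0.478%) in either direction. Among the genes nearest to MDC1 over the 4 libraries, by Euclidean distance of centred log2(TPM + 1), were ZBTB43 (0.418) and MTSS1 (0.44). Both were highest in niraparib replicate 2, which follows from choosing them by their likeness to MDC1 and is no separate evidence. ZBTB43, for instance, was at 4.28 and 4.56 TPM with DMSO and at 6.28 and 14.6 TPM with niraparib.

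RNF8, the first ubiquitin ligase at the break, was at 35.9 and 33.3 TPM with DMSO and at 33.6 and 34.2 TPM with niraparib. The groups overlapped, and the 95% interval of the log2 fold change, -0.21 to 0.16 around -0.03, leaves room for changes of that size in either direction (limma adjusted p = 0.806). RNF168, the ligase that acts after RNF8, was at 14.1 and 11.0 TPM with DMSO and at 7.57 and 8.08 TPM with niraparib. Both niraparib libraries were below both DMSO libraries, with a log2 fold change of -0.61 (standard error 0.146, 95% interval -0.98 to -0.24, limma adjusted p = 0.0315). The GC-adjusted value of -0.50 was just outside the threshold (limma adjusted p = 0.0513). Within each library RNF168 was at 0.392 and 0.329 of the TPM of RNF8 with DMSO and at 0.225 and 0.236 with niraparib. With RNF8 nearly level, this ratio follows RNF168 and is no separate evidence.

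TP53BP1, which encodes the reader 53BP1, was at 18.9 and 14.9 TPM with DMSO and at 21.8 and 22.7 TPM with niraparib. Both niraparib libraries were higher, and the DMSO libraries were spread more widely than the niraparib libraries. Its log2 fold change of 0.39 (95% interval 0.06 to 0.72) did not pass the adjusted threshold (limma adjusted p = 0.0716, and 0.0503 when GC-adjusted). Without DMSO replicate 1 it was 0.55 and passed (limma adjusted p = 0.0461), and without DMSO replicate 2 it was 0.23 (adjusted p = 0.255). In GENCODE release 44 lifted to GRCh37, TP53BP1 on chromosome 15 (43695259 to 43802926, minus strand) shares 3732 exon bases with TUBGCP4 on the opposite strand. TUBGCP4 was at 15.4 and 13.3 TPM with DMSO and at 12.6 and 13.03 TPM with niraparib. No source states whether the counting used the strand, and without it reads from this stretch cannot be assigned to either gene.

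RIF1, the protein that 53BP1 carries to block resection and to recruit shieldin, was at 7.54 and 7.34 TPM with DMSO and at 3.52 and 3.78 TPM with niraparib. The niraparib libraries were close to each other and far below the DMSO libraries, with a log2 fold change of -0.86 (standard error 0.129, 95% interval -1.19 to -0.54, limma adjusted p = 0.00907). The gene is on the plus strand at chr2:152266397-152364527 (GRCh37), and its longest transcript has the lowest GC content of the 10 genes, 37.3%. Its GC-adjusted log2 fold change was smaller, -0.54, and still passed (limma adjusted p = 0.0286). RIF1 was at 0.4 and 0.494 of the TPM of TP53BP1 with DMSO and at 0.161 and 0.167 with niraparib. Since RIF1 was lower and TP53BP1 higher in both niraparib libraries, these ratios could not overlap and are no separate evidence.

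PAXIP1, the other partner that binds phosphorylated 53BP1, was at 13.3 and 13.9 TPM with DMSO and at 8.24 and 9.59 TPM with niraparib. Both niraparib libraries were lower, with a log2 fold change of -0.56 (standard error 0.117, 95% interval -0.85 to -0.27, limma adjusted p = 0.0212) that hardly moved with GC adjustment (-0.52, limma adjusted p = 0.0264). PAXIP1 was at 0.704 and 0.936 of the TPM of TP53BP1 with DMSO and at 0.377 and 0.423 with niraparib. The lncRNA PAXIP1-AS2, which shares 582 exon bases with PAXIP1 on the opposite strand, was at 1.02 and 1.12 TPM with DMSO and at 2.08 and 1.5 TPM with niraparib.

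**Figure D2:**
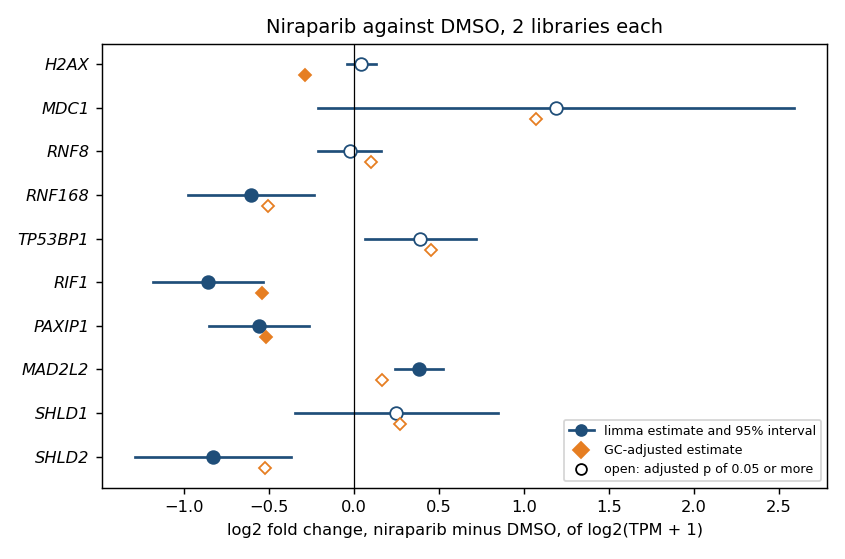
Log2 fold change of niraparib minus DMSO for each gene (circles, with 95% limma intervals) and the GC-adjusted value (diamonds), filled where the adjusted p is under 0.05. RIF1 (-0.86) and PAXIP1 (-0.56) are filled in both forms, MAD2L2 (0.38), SHLD2 (-0.83) and RNF168 (-0.61) only before GC adjustment, and H2AX only after it.

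The calls of the shieldin genes differed before GC adjustment, and differences between these genes were not tested. MAD2L2 (also called REV7), a small adaptor that shieldin shares with the translesion polymerase zeta, was at 73.3 and 71.9 TPM with DMSO and at 92.2 and 97.7 TPM with niraparib. MAD2L2 rose (log2 fold change 0.38, standard error 0.0569, 95% interval 0.24 to 0.53, limma adjusted p = 0.00896). Its transcript is GC-rich (58.9%), and after GC adjustment the value was 0.16 and missed the threshold (limma adjusted p = 0.127). FBXO6, which shares 876 exon bases with MAD2L2 on the opposite strand, was at 5.80 and 4.97 TPM with DMSO and at 11.5 and 9.01 TPM with niraparib, also higher (limma adjusted p = 0.018). FBXO44, which overlaps MAD2L2 but shares no exon base with it, was at 12.7 and 11.2 TPM with DMSO and at 21.9 and 21.4 TPM with niraparib. How far reads of these neighbours enter the value of MAD2L2 was not tested.

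SHLD2, the shieldin subunit that binds single-stranded DNA, was at 9.55 and 9.42 TPM with DMSO and at 4.03 and 5.90 TPM with niraparib. Both niraparib libraries were lower, though they differed from each other more than the DMSO libraries did. The log2 fold change was -0.83 (standard error 0.181, 95% interval -1.29 to -0.37, limma adjusted p = 0.024). The GC-adjusted value was -0.52 and did not pass (limma adjusted p = 0.0631), with a GC content of 37.8%. SHLD2 has copies annotated as pseudogenes, of which SHLD2P1 was at 0.1 to 0.88 TPM. How the counting divided reads between copies is not stated, and the level of SHLD2 is uncertain to that extent. GLUD1, which shares 464 exon bases with SHLD2 on the opposite strand, was at 149 TPM in both DMSO libraries and at 123 and 133 TPM with niraparib, also lower (limma adjusted p = 0.0376), and its part in the value of SHLD2 was not tested. SHLD1, the subunit that binds SHLD2, was at 3.40 and 1.95 TPM with DMSO and at 3.03 and 3.55 TPM with niraparib. The groups overlapped and the interval of its log2 fold change was wide, from -0.35 to 0.85 around 0.25 (limma adjusted p = 0.455).

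SHLD3, the subunit that links MAD2L2 to the rest of shieldin and that is not among the 10 genes, was at 2.93 and 2.89 TPM with DMSO and at 0.99 and 1.35 TPM with niraparib. SHLD3 fell (log2 fold change -0.85, limma adjusted p = 0.0216, and 0.0981 when GC-adjusted to -0.43). The call was lost without DMSO replicate 1 (0.0921), DMSO replicate 2 (0.0842) and niraparib replicate 1 (0.0858). It passed the filter on low values through the DMSO libraries and 1 niraparib library. MAD2L2 mRNA was in excess over the dedicated subunits in every library. With DMSO the TPM of MAD2L2 was 7.67 and 7.63 times that of SHLD2, and with niraparib 22.9 and 16.6 times. The same ratio to SHLD3 was 25 and 24.9 with DMSO and 93.1 and 72.3 with niraparib. The ratio of MAD2L2 to SHLD1 overlapped between the groups, with 21.6 and 36.9 against 30.4 and 27.5. The pairs with SHLD3 were added after its values were seen. The ratios are descriptions, and no test of them was run. MAD2L2 is richer in GC (58.9%) than SHLD2 (37.8%) and SHLD3 (33.7%). None of the ratios between genes given here was GC-adjusted, and the part of the GC trend in them was not tested.

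**Figure D3:**
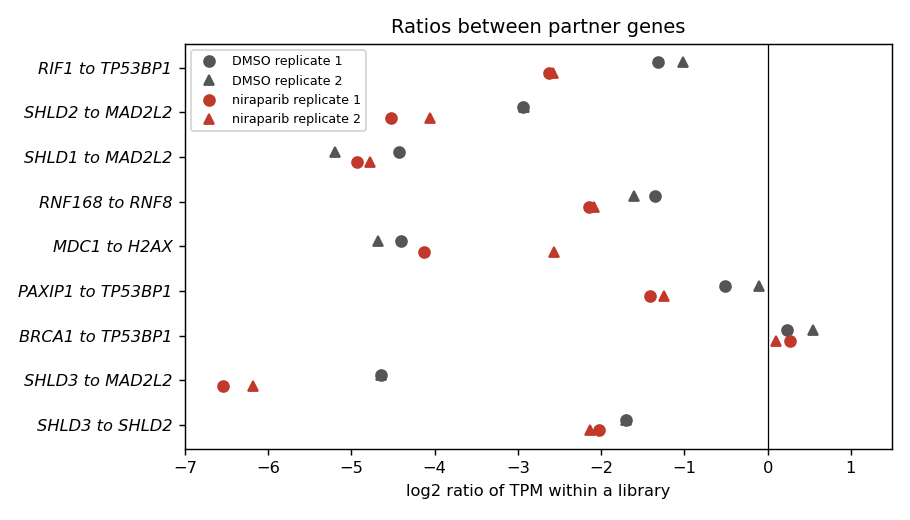
Log2 ratio of the TPM of partner genes within each library (grey for DMSO, red for niraparib). RIF1, PAXIP1, RNF168, SHLD2 and SHLD3 are lower relative to their partners in both niraparib libraries, while SHLD1 to MAD2L2 and BRCA1 to TP53BP1 overlap. MDC1 to H2AX is higher in both niraparib libraries (-4.13 and -2.57, against -4.4 and -4.68 with DMSO).

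Base composition differed widely among the 10 genes. RIF1 and SHLD2, with the lowest GC content, had the lowest log2 fold changes (-0.86 and -0.83), whereas H2AX, with the highest GC content (66.8%), had 0.04, and MDC1, with the highest fold change (1.19), had a GC content of 53.2%. TP53BP1 (45.7%) and SHLD1 (47.3%) were close in GC content to PAXIP1 (46.4%) and RNF168 (44.4%), but had values of 0.39 and 0.25 against -0.56 and -0.61. With GC-adjusted values 3 of the 10 genes were called lower, RIF1, PAXIP1 and H2AX, against 9.94% of the genes tested in that form. By limma 0 were called higher, against 16.3%. At an unadjusted limma p under 0.05, 5 were lower and 1 was higher. With the median of each library also removed, 5 were lower (RIF1, PAXIP1, H2AX, SHLD2 and RNF168), against 14.5%, and 0 higher, against 12%. At an unadjusted limma p under 0.05 the counts in this form were 5 lower and 1 higher. The part that GC content has in the remaining calls was not tested.

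**Figure D4:**
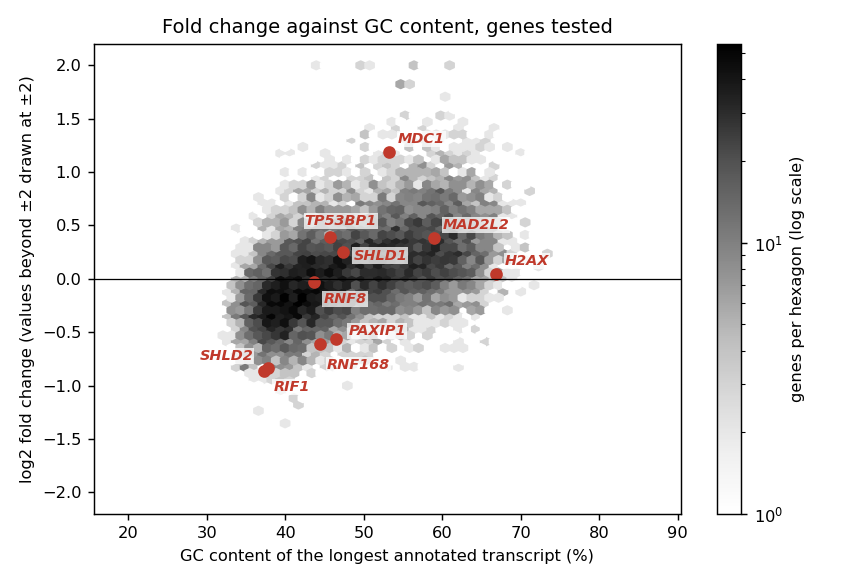
Log2 fold change against the GC content of the longest annotated transcript in percent, for genes tested (grey hexagons, darker for more genes) and for the 10 genes (red). RIF1 and SHLD2 lie at low GC content and low fold change, whereas PAXIP1 and RNF168 lie below TP53BP1 and SHLD1 at a like GC content.

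The stretches before the transcription starts of genes that fell (RIF1, RNF168), rose (MAD2L2) or stayed close (H2AX) are shown so that their base composition and elements can be compared. They are RefSeq sequences of GRCh38.p14, 250 bases up to the base before the annotated start and 5′ to 3′ on the strand of the gene, from chr2:151409652-151409901 (plus strand), chr3:196503769-196504018 (minus strand), chr1:11691560-11691809 (minus strand, the start farther from the gene of 2 listed) and chr11:119095466-119095715 (minus strand). Capitals mark matches to 6 motifs searched on both strands: CCAAT, bound by NF-Y, TTTGAA, the core of the CHR element of cell cycle genes, TTTCCCGC and TTTGGCGC, forms of the E2F site, CCGGAAG, an ETS site, and the palindromic NRF1 site.
RIF1: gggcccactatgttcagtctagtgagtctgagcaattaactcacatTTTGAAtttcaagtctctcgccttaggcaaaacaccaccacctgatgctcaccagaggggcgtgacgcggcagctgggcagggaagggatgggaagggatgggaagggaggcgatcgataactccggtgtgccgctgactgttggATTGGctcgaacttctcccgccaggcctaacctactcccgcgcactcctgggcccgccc
RNF168: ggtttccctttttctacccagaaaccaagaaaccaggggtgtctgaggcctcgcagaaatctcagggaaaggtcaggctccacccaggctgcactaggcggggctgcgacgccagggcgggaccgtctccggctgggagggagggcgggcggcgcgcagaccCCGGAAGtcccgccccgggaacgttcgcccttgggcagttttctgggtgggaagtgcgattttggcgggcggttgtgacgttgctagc
MAD2L2: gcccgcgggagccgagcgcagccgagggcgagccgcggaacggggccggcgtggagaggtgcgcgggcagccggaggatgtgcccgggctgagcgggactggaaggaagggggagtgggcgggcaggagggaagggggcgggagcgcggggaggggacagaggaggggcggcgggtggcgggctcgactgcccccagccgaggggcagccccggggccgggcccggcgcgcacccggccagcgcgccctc
H2AX: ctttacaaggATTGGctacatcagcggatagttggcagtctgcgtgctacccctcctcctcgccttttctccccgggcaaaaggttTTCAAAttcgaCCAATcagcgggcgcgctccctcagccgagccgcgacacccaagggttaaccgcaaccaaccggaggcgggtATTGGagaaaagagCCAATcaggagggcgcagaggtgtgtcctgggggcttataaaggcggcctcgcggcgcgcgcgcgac
The RIF1 stretch holds TTTGAA at 204 to 199 bases before the start and CCAAT, on the reverse strand, at 59 to 55 bases before it. The RNF168 stretch holds CCGGAAG at 88 to 82 bases before the start. The H2AX stretch holds CCAAT at 4 places, on both strands, and TTTGAA at 1 place on the reverse strand, and the MAD2L2 stretch holds none of the 6 motifs. The stretch before the other listed start of MAD2L2, chr1:11681149-11681398, holds CCAAT at 231 to 227 bases before that start and has a GC content of 70.8% and 31 CpG pairs. Of 35116 RefSeq windows of the same length, 32% hold CCAAT, 13.3% TTTGAA, 8.52% CCGGAAG, 1.39% TTTCCCGC, 1.03% the NRF1 site and 0.55% TTTGGCGC. The GC content was 58.4% in RIF1, 65.2% in RNF168, 60.8% in H2AX and 81.6% in MAD2L2, with a median of 58% over all windows, and CpG pairs numbered 13, 20, 23 and 33, with a median of 11. The table holds windows for 7 of the 10 genes and not for PAXIP1, SHLD1 and SHLD2.

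In the wider pathway, 6 lists of other genes that act beside these 10 held 89 genes, of which 85 were tested. EYA1 and USP51 were below the filter, and EYA2 and USP44 were not analysed here. Of these, 17 fell and 7 rose (20% and 8.24%, beside 11.7% and 20.8% of all genes tested), and their median log2 fold change was -0.09, beside 0.07. These counts were 23 lower and 1 higher with median-of-ratios scaling, beside 16.7% and 14.9% of all genes tested. Fewer list genes were called in either direction when each library was left out in turn. The share of all genes called was not counted in those fits. With GC-adjusted values 11 were lower and 5 higher, beside 9.94% and 16.3% of all genes tested in that form, with a median of -0.04 beside 0.08.

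Among 23 partners and regulators of RNF8 and RNF168, 6 fell and 1 rose (26.1% and 4.35%), and the other 16 missed the threshold. Of all genes tested, 11.7% fell and 20.8% rose. UBE2N (Ubc13), the ubiquitin-conjugating enzyme that works with RNF8, was at 109 and 126 TPM with DMSO and at 70.9 and 80.8 TPM with niraparib, and fell (log2 fold change -0.63, limma adjusted p = 0.00991). UBE2N and PSMD14 were also among the genes the study drew as lower. UBE2V2, a partner of UBE2N, also fell (log2 fold change -0.41, limma adjusted p = 0.0273), with 0.0059 after GC adjustment. USP16, which removes ubiquitin from histone H2A, was at 9.61 and 8.99 TPM with DMSO and at 3.45 and 3.54 TPM with niraparib, the lowest value in the lists (log2 fold change -1.20, limma adjusted p = 0.00417). USP7, a deubiquitinase that stabilises RNF168, was at 50.6 and 51.7 TPM with DMSO and at 34.8 and 37.4 TPM with niraparib, and fell (-0.49, limma adjusted p = 0.00792). VCP, an unfoldase that removes proteins that compete with 53BP1 for chromatin, had -0.20 and PSMD14, a deubiquitinase of the proteasome, -0.52, and both fell. The value of PSMD14 was close to 0 after GC adjustment (-0.044, limma adjusted p = 0.532). OTUB1, an inhibitor of UBE2N, rose by 0.21, a call lost in its GC-adjusted value of -0.04 (limma adjusted p = 0.635).

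Of 10 genes for histone methylation and the recruitment of 53BP1, 2 fell and 2 rose (20% each, beside 11.7% and 20.8% of all genes tested). The 2 enzymes that add further methyl groups to the histone H4 lysine read by 53BP1 went opposite ways. KMT5B was at 16.6 and 15.5 TPM with DMSO and at 7.07 and 9.78 TPM with niraparib, and fell (log2 fold change -0.87, limma adjusted p = 0.016). KMT5C was at 6.34 and 6.46 TPM with DMSO and at 11.3 and 9.19 TPM with niraparib, and rose (0.60, limma adjusted p = 0.0273). Their GC content was 39.8% and 66%, and the GC-adjusted values were -0.62 (limma adjusted p = 0.0322) and 0.28 (adjusted p = 0.139). DYNLL1, a dynein light chain that binds 53BP1, had -0.22 and fell, and KDM4A, which binds the same histone mark, rose by 0.35. The call of KDM4A was at the threshold (limma adjusted p = 0.0437) and was lost without each of the 4 libraries, with both other scalings and after GC adjustment (0.29, adjusted p = 0.0797).

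Of 10 genes of break sensing and H2AX phosphorylation, 3 fell and 1 rose (30% and 10%, beside 11.7% and 20.8% of all genes tested). NBN, the subunit of the MRE11 complex that recruits ATM, fell (log2 fold change -0.84, limma adjusted p = 0.0109) and is another gene the study drew as lower. TOPBP1, an activator of ATR, had -0.48 and KAT5, an acetyltransferase that activates ATM, -0.37, and both fell. TOPBP1 had -0.33 after GC adjustment and just missed the threshold (limma adjusted p = 0.0538). ATM, the main kinase of H2AX, was at 12.02 and 10.1 TPM with DMSO and at 14.7 and 15.8 TPM with niraparib, and rose by 0.43 (limma adjusted p = 0.0459, and 0.0121 when GC-adjusted to 0.69). Its call did not hold without any 1 of the 4 libraries or with either other scaling. Of 8 phosphatase genes tested, 2 fell and 0 rose (25% and 0%, beside the same shares of all genes). The 2 that fell were PPP2CA (-0.39) and PPP4R3A (-0.58), the latter a subunit of the PP4 complex that dephosphorylates γH2AX. PPP2CA lost its call after GC adjustment (-0.15, limma adjusted p = 0.148).

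Of 18 further genes of end protection, 2 fell and 3 rose (11.1% and 16.7%, close to the 11.7% and 20.8% of all genes tested). Besides SHLD3, POLA1, the catalytic subunit of polymerase alpha that fills in protected ends, fell (log2 fold change -0.50, limma adjusted p = 0.0207). CTC1, a subunit of the CST complex that brings in polymerase alpha, rose by 0.60 (limma adjusted p = 0.036). MAD2L1BP, which helps to take MAD2L2 complexes apart, rose by 0.31 and EXD2, a nuclease of resection, by 0.48. Each of these 3 rises was lost without each of the 4 libraries and with median-of-ratios scaling. After GC adjustment POLA1 (-0.29, limma adjusted p = 0.0788), CTC1 (0.48, adjusted p = 0.0615) and MAD2L1BP (0.20, adjusted p = 0.0617) missed the threshold. Of 16 genes of the BRCA1-A complex and of resection, 2 fell and 0 rose by limma (12.5% and 0%, beside 11.7% and 20.8%). At an unadjusted limma p under 0.05, 4 were lower and 1 was higher. The higher one was EXO1, a nuclease of long-range resection (log2 fold change 0.35, limma adjusted p = 0.063). EXO1 passed after GC adjustment (0.51, limma adjusted p = 0.0296). RBBP8 (CtIP), which starts resection, was at 16.6 and 20.2 TPM with DMSO and at 10.7 and 10.5 TPM with niraparib, and fell (log2 fold change -0.74, limma adjusted p = 0.0119). UHRF1, a chromatin protein that directs RIF1 away from breaks, had -0.49 (limma adjusted p = 0.005) and fell. BRCA1 was at 22.1 and 21.7 TPM with DMSO and at 26.3 and 24.2 TPM with niraparib, and missed the threshold (log2 fold change 0.19, limma adjusted p = 0.132), and its GC-adjusted value of 0.35 was past the threshold (limma adjusted p = 0.0387). The ratio of BRCA1 to TP53BP1 was 1.17 and 1.46 with DMSO and 1.2 and 1.07 with niraparib. BARD1, the partner of BRCA1, was at 7.14 and 6.81 TPM with DMSO and at 6.08 and 21.4 TPM with niraparib, so that, as for MDC1, niraparib replicate 2 stood apart (log2 fold change 0.66, limma adjusted p = 0.425).

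**Figure D5:**
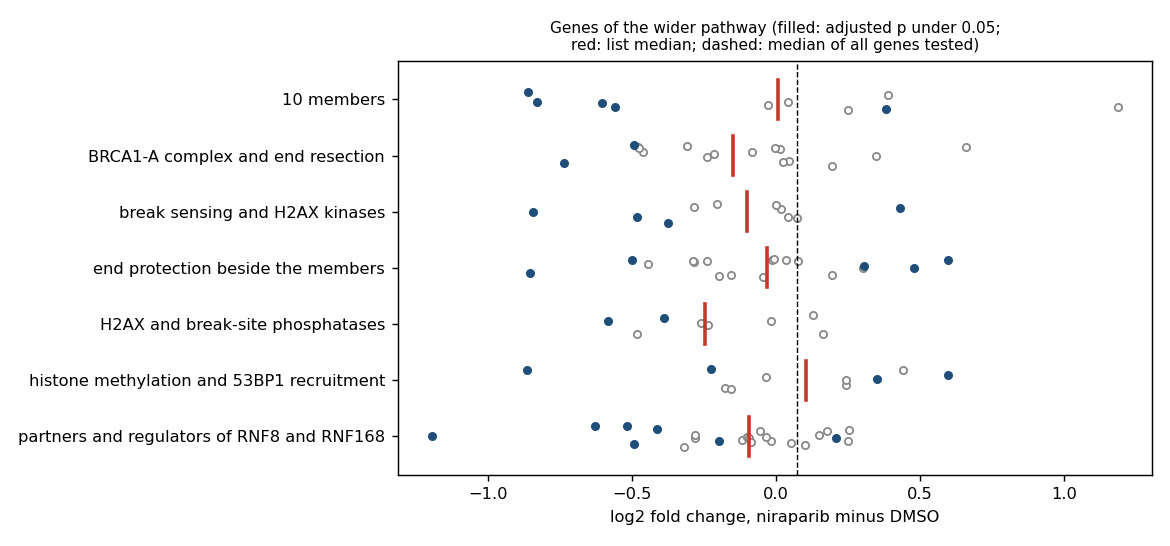
Log2 fold change of each gene tested in the 10 described genes and in 6 lists of the wider pathway, filled where the limma adjusted p is under 0.05, with the list median in red and the median of all genes tested (0.07) dashed. Filled points lie on both sides of 0 in most lists, and the lowest point is USP16 (-1.20).

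With 2 libraries a group, many calls were lost when any of several libraries was left out. The share of all genes that lost calls in these fits was not counted. The direction of the 5 called genes could not change in these fits, since their groups did not overlap. Of the 5 calls among the 10 genes, those of RIF1 and MAD2L2 were kept when each library was left out in turn (limma adjusted p up to 0.0488 and 0.044). PAXIP1 and SHLD2 lost theirs without DMSO replicate 1 (limma adjusted p = 0.0745 and 0.0849), DMSO replicate 2 (0.091 and 0.0777) and niraparib replicate 1 (0.076 and 0.0616). RNF168 lost its call without DMSO replicate 1 (limma adjusted p = 0.129), niraparib replicate 1 (0.123) and niraparib replicate 2 (0.0848). Over these fits the log2 fold changes ran from -0.66 to -0.46 for PAXIP1, from -1.06 to -0.60 for SHLD2 and from -0.77 to -0.44 for RNF168. In the 6 lists, 5 of 24 calls were kept in each of these fits, those of NBN, USP7, USP16, PSMD14 and UHRF1, and 13 of 24 were kept in both GC-adjusted forms.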

How the data were processed

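RNA-Seq of 4 libraries of Cal-62 cells was used, 2 with DMSO and 2 with niraparib, grouped by their titles. According to the methods, the authors used Trim Galore for trimming and STAR for alignment to hg19. The submitters' processing notes list other names (HISAT2, hg38, mm10) beside Trim Galore. The deposited table, though named as counts, holds TPM, which the authors scaled per library, to 2 decimals. The tool, annotation and strand setting behind the TPM are not given in the sources used here, and the depth is unknown.

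From these values, log2(TPM + 1) was compared with limma 3.58.1 in R 4.3.3 (trend and robust priors, two-sided, Benjamini-Hochberg over 13377 genes). Genes were matched to GENCODE 44 on GRCh37, 88.8% of 16717 entries, for GC content of the longest transcript, and the loess trend (span 0.5) of each library against it was removed in the GC-adjusted values, in another form with each library's median also removed. The members, lists and rules were chosen with earlier results of these data known. Named are all 10 members, list genes with an adjusted p under 0.05 or among the 5 smallest p of a list, overlapping genes, and the 3 genes nearest to the member with the largest fold change. BARD1 and BRCA1 fall outside this rule. The ratio of BRCA1 to TP53BP1 had been planned, while BARD1 and the other values of BRCA1 were chosen after they were seen. Simulated data with known changes were used to test the fit. Protein features had been planned and were not analysed here, and some genes that the rules select are not reported here.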

Additional observations from a re-analysis of the deposited data

How the results depend on the processing

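The alternatives were 2 further scalings, 2 filters, pseudocounts of 0.1 and 0.5, limma without trend and robust priors, the replicate block, both GC adjustments and the removal of each library. Among the 10 genes, the counts of 4 lower and 1 higher were the same under both scalings, both filters, both pseudocounts and the block, and RNF168 was lost in limma without trend and robust priors (adjusted p = 0.0525). The number higher was 0 with GC-adjusted values and 0 when these were also centred. Without each library in turn, the median log2 fold change of the 10 genes ran from -0.059 to 0.027, and the number called changed. The share of all genes called was not counted in these fits, so a general loss of calls with fewer libraries was not tested. The median of the 10 genes was -0.092 with median-of-ratios scaling, -0.096 GC-adjusted and -0.17 when also centred, and the median of all genes tested was -0.018, 0.078 and 0.004 in these forms. In the lists the number higher was 1 with median-of-ratios scaling, 3 with upper-quartile scaling, 4 with no filter, 3 without trend and robust priors and 3 when GC-adjusted and centred, and the number lower was 11 GC-adjusted and 23 with median-of-ratios scaling. Without each library these ran from 7 to 14 lower and from 0 to 1 higher. The causes were not tested.

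Reversed were H2AX with median-of-ratios scaling (-0.059), upper-quartile scaling (-0.011), GC adjustment (-0.29) and centring (-0.36), RNF8 without DMSO replicate 1 (0.025, from -0.079 over the libraries left out), GC-adjusted (0.098) and centred (0.024), SHLD1 without DMSO replicate 2 (-0.039, up to 0.54), UBE2V2 GC-adjusted (0.0059), OTUB1 GC-adjusted (-0.038) and centred (-0.11), and BARD1 without niraparib replicate 2 (-0.17, up to 1.49).

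With the replicate block, 4 of the 10 genes were lower and 1 higher, and in the lists 17 were lower and 3 higher. Across genes the differences between replicates 1 and 2 of the groups had a correlation of -0.0148, so no effect shared by replicate number was seen. Whether libraries of the same number were set up together is not stated, and these values cannot show it. GC adjustment with the block was not run. Where 1 library of a group is left, it is assumed to vary like the other group.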
